A study of Mus musculus with 10 samples.

Results

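10 genes that mark or control the basal, stem-like and mesenchymal states of epithelial cells were followed through sorted mouse mammary cells. They were taken by symbol and are Trp63, Sox9, Sox10, Snai1, Snai2, Zeb1, Zeb2, Twist1, Procr and Vim, which makes 10 of the 24000 genes in each deposited table. The rule itself names genes and uses no measured value. Of the 10 members, 9 had at least 1 read in some column and 8 reached a level of 50 in at least 1 column. Twist1 was listed at 0 throughout.

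The series concerns Bptf, a chromatin-binding subunit of the nucleosome remodeler NURF, and its title asks about open chromatin and the renewal of mammary stem cells. Cells were sorted by FACS from mammary glands of female mice labelled Bptf WT or Bptf KO, and all mice had first received tamoxifen, 15 mg per kg in total. The 10 RNA-seq libraries form 5 groups of 2: luminal cells labelled WT, luminal cells labelled KO, myoepithelial (basal) cells labelled WT, myoepithelial cells labelled KO, and a mammary epithelial population called Bsecs, labelled KO only, whose name the labels do not spell out. The labels give no age, no allele, no driver of the knockout and no number of animals per library. Titles call the KO luminal libraries knockout while their source field names BptfWT mice, so they are called KO-labelled luminal here. The labels do not name the markers used for sorting.

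The authors deposited a single mean column per group and comparison, from which whole read counts were recovered. Levels below are those counts scaled over the 5 distinct columns by median-of-ratios factors and are called normalised counts. No value is labelled by library in the tables used, so no difference has a replicate check, and every interval is a 95% interval of counting error only. Each column was made of whole multiples of 1 step. Whether it holds 1 library or the pooled reads of its group is not stated. Column totals ran from 2036681 to 3840462 counts, of which the ribosomal RNA gene Rn45s took 9.76% to 32.2%. Bptf itself ran from 558 to 750.0 normalised counts and did not separate columns labelled WT from those labelled KO, since WT luminal held 571 and KO-labelled luminal 736, and Bsecs held 679.6. The files do not say which exon the knockout removes, and reads outside it would not check the label. The basal columns cannot be given a genotype: the column of 2036681 counts is headed KO in one table and WT in another, and the column of 2359861 counts carries the opposite headings. After their totals they are named smaller basal and larger basal, and nothing that differs between these columns is ascribed to Bptf. Gapdh, which every cell uses, had only 2 to 25 counts per column and Eno1 at most 1, so a gene at 0 is said to be listed at 0 and its absence is not inferred.

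The mammary epithelium has an inner luminal layer and an outer basal layer of contractile myoepithelial cells, and cells able to regrow a gland on transplantation are found in the basal fraction. p63, the product of Trp63, maintains basal identity in stratified and glandular epithelia. The Snail, Zeb and Twist factors repress epithelial junction genes such as Cdh1 during epithelial-mesenchymal transition, the switch by which epithelial cells loosen and become motile. Sox9 and Sox10 are transcription factors linked to mammary progenitors, Procr encodes a receptor used to mark a stem-like basal population, and Vim encodes vimentin, the intermediate filament protein of mesenchymal and basal cells.

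The RefSeq promoter table used here matched 5 of the 10 members. The upstream bases of Procr and Vim are shown because these genes had the highest levels per kb in larger basal and their levels are spaced differently over the basal columns, with Procr higher in the larger and Vim close in both. The 250 bases before the start site are given on the plus strand of build GRCm38.p6, at chr2:155750967-155751216 for Procr and chr2:13574061-13574310 for Vim. Capitals mark a TATAAA match.
Procr: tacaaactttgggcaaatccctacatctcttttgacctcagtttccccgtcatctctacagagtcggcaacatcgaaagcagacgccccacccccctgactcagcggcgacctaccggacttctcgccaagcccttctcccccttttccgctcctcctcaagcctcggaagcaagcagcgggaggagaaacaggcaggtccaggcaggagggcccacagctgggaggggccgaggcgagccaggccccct
Vim: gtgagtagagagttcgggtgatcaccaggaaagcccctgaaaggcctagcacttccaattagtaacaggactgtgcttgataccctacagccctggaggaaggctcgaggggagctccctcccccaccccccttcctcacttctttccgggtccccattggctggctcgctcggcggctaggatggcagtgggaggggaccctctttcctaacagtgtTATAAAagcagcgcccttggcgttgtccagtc
The Procr stretch held 13 CpG dinucleotides at 61.6% GC and the Vim stretch 8 at 58.4% GC, against a median of 6 CpG over 32851 promoters. The windows were searched on both strands for the Snail and Zeb E-box CACCTG, the Sox core AACAAT and TATAAA, which 17.2%, 9.42% and 12.4% of all promoters of that length hold. Vim held TATAAA starting 32 bases before the start, and the Procr window held none of the 3 motifs. A match is a description of letters, and no binding was measured here.

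**Figure D1:**
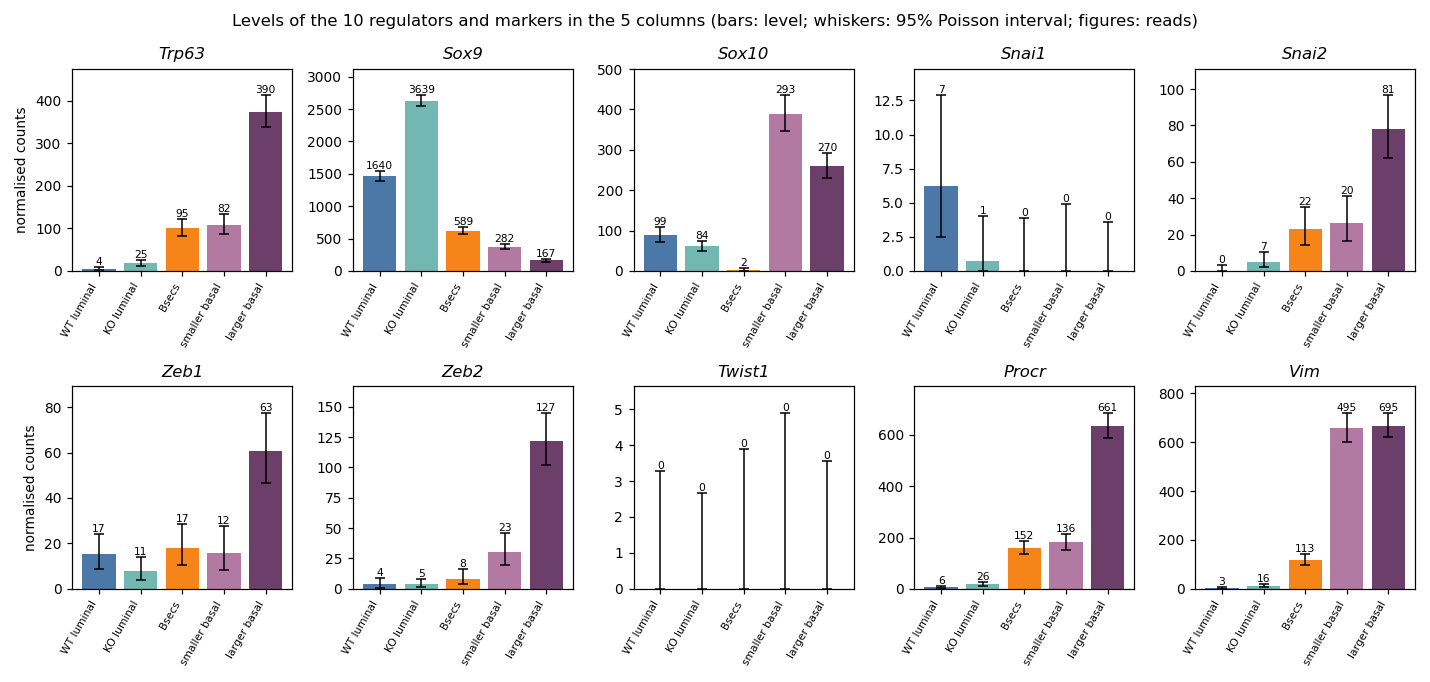
Levels of the 10 members in the 5 columns, in normalised counts on a linear axis starting at 0. Bars are levels, whiskers are 95% Poisson intervals of the reads, and the printed figures are the reads; 6 members are highest in larger basal, Sox10 in the smaller, Sox9 in KO-labelled luminal, and Snai1 in WT luminal with 7 reads.

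Trp63, the basal master regulator, formed a graded series. Its level was 3.57 in WT luminal from 4 reads, 18.1 in KO-labelled luminal from 25 reads, 100.1 in Bsecs from 95 reads, 109 in smaller basal from 82 reads and 375 in larger basal from 390 reads. The luminal columns were low, larger basal was high, and Bsecs and smaller basal stood together, with a ratio of Bsecs to smaller basal of 0.919 (0.677 to 1.25). Larger basal was 3.44-fold above the smaller (2.71 to 4.43) and 105-fold above WT luminal (40.7 to 387). Trp63 in KO-labelled luminal was 5.06-fold above WT luminal, on 25 against 4 reads, with an interval that starts at 1.75. Of the 11 markers on the basal list with at least 20 reads, 6 were more than 4-fold higher in the same column and 1 lower. Over all genes, 6.73% were that much higher and 4.57% lower. Krt5 stood at 0.893 and 30.4 and Krt14 at 48.2 and 215 in WT and KO-labelled luminal. Mme, the 1 lower, was at 413 and 63.6, while Tagln was at 78.6 and 62.2 and Acta2 at 33.9 and 66.5. The part of these markers in the Trp63 difference was not tested. The Trp63 difference did not pass the authors' DESeq test (unadjusted p = 0.327).

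Snai2, which encodes Slug, a Snail-family repressor present in basal mammary cells, followed the same order at lower counts. It was listed at 0 in WT luminal, and its level was 5.06 in KO-labelled luminal from 7 reads, 23.2 in Bsecs from 22, 26.6 in smaller basal from 20 and 77.9 in the larger from 81. Bsecs again stood with smaller basal, at a ratio of 0.873 (0.455 to 1.69). With WT luminal placed at the floor of 3 counts, Snai2 was 8.65-fold higher in Bsecs and 29.1-fold higher in larger basal. The counting intervals, taken from the 0 reads themselves, start at 6.46 and 23.1. Larger basal was 2.93-fold above the smaller (1.78 to 5.05).

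Procr, the protein C receptor, ran from 5.36 in WT luminal through 18.8 in KO-labelled luminal, 160.2 in Bsecs and 181 in smaller basal to 636 in the larger. The reads behind these were 6, 26, 152, 136 and 661. Bsecs thus held 0.887 of the smaller basal level (0.699 to 1.13) and was 3.97-fold below the larger (3.32 to 4.77). Procr was 29.9-fold higher in Bsecs than in WT luminal (13.4 to 82.7), with an unadjusted DESeq p of 0.00987 and an adjusted p = 0.586 by Benjamini-Hochberg. Between the basal columns Procr was 3.52-fold higher in the larger (2.92 to 4.27), with an unadjusted DESeq p of 0.0393 that did not pass adjustment. On totals without Rn45s the log2 ratio of Bsecs to smaller basal moved from -0.17 to -0.38 for Procr, from -0.12 to -0.32 for Trp63 and from -0.19 to -0.39 for Snai2, within a shift of all genes by -0.21.

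Vim took another course. Its level was 2.68 in WT luminal from 3 reads, 11.6 in KO-labelled luminal from 16, 119 in Bsecs from 113, 657 in smaller basal from 495 and 668 in the larger from 695. The basal columns did not differ beyond counting error (ratio of larger to smaller 1.02, 0.905 to 1.14; the log2 ratio of smaller to larger was -0.02, and -0.17 on totals without Rn45s and -0.12 with TMM factors), and Bsecs lay 5.61-fold below the larger (4.60 to 6.91) and 5.52-fold below the smaller (4.49 to 6.83). Those differences had unadjusted DESeq p-values of 0.0541 and 0.0531, and neither passed after adjustment. Vim in Bsecs was still 44.4-fold above WT luminal (14.8 to 219, unadjusted p = 0.0107, adjusted p = 0.602 by Benjamini-Hochberg over all genes).

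Zeb1 and Zeb2, zinc-finger repressors of epithelial genes, had the lowest levels per kb in larger basal apart from Snai1 and Twist1. Zeb2 had 4, 5, 8, 23 and 127 reads in WT luminal, KO luminal, Bsecs, smaller basal and larger basal, for levels of 3.57, 3.61, 8.43, 30.5 and 122. The interval of the ratio of larger to smaller basal ran from 2.55 to 6.54, and larger basal was 14.5-fold above Bsecs (7.13 to 34.3, unadjusted p = 0.0247, adjusted p = 0.797 by Benjamini-Hochberg). Zeb1 had 17, 11, 17, 12 and 63 reads in the same order, for levels of 15.2, 7.95, 17.9, 15.9 and 60.6. Only larger basal stood above the rest, 3.80-fold over the smaller (2.03 to 7.75) and 3.38-fold over Bsecs (1.95 to 6.17). The intervals of all neighbouring pairs among the other 4 columns included 1, so their order is not resolved.

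Larger basal, where Trp63, Snai2, Procr, Zeb1 and Zeb2 were highest, also had the highest summed level of fibroblast markers. All 10 of those markers had reads in Bsecs and in both basal columns, and their summed level was 2693 in larger basal, 485 in the smaller and 522 in Bsecs, with 935 and 1206 in the WT and KO luminal columns. Dcn, which encodes decorin, gave 1297 of the sum in larger basal, and 775 and 983 of the luminal sums. Pdgfra, a fibroblast receptor, had a level of 103 in larger basal and 17.3 in the smaller, and Lum, a proteoglycan of stroma, 154 and 3.98. Endothelial markers summed to 266 in larger basal, 94.3 in the smaller and 198 in Bsecs, where Flt1 alone gave 189 and Pecam1 and Kdr were listed at 0. Pericyte markers summed to 302, 114 and 57.9 in the same order, and leukocyte markers to 33.7 to 622 over the 5 columns with the luminal columns highest. Vim, which fibroblasts also express, stood at 668 in larger basal and 657 in smaller basal. The part of these cell types in the difference between the basal columns was not tested. In bulk samples such as these, fewer cells of a type and less RNA per cell cannot be told apart.

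**Figure D2:**
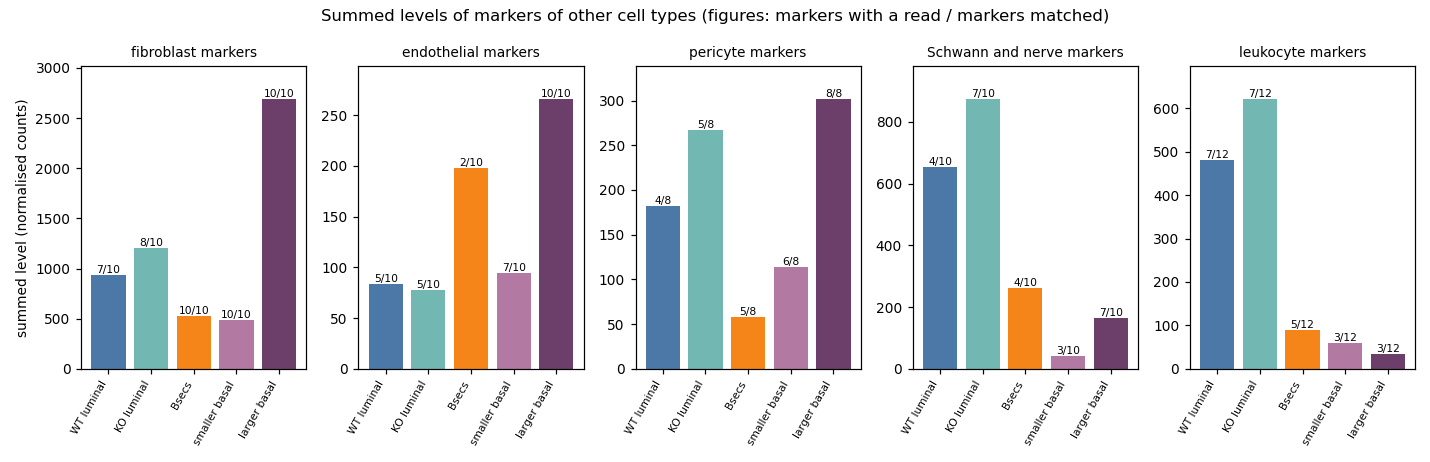
Summed levels, in normalised counts on linear axes starting at 0, of 5 lists of markers of other cell types in the 5 columns. Figures give markers with a read out of those matched; fibroblast markers are highest in larger basal, at 2693 against 485 in the smaller.

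Snai1, the prototype Snail repressor, had few reads. There were 7 in WT luminal and 1 in KO-labelled luminal, and Snai1 was listed at 0 in Bsecs and both basal columns. The ratio of WT to KO luminal was 8.65, with an interval of 1.11 to 389.8 on 7 against 1 read. Twist1, a bHLH factor, was listed at 0 in all 5 columns, and the floor of 3 counts corresponds to levels of 2.17 to 3.98. By counting error alone, 0 reads allow somewhat more. The upper limits of the Twist1 levels ran from 2.67 in KO-labelled luminal to 4.90 in smaller basal.

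Sox10, known in neural crest and in mammary stem and progenitor cells, was the only member with a difference that passed the adjusted test in the 6 comparisons. Its level was 88.4 in WT luminal from 99 reads, 60.7 in KO-labelled luminal from 84, 2.11 in Bsecs from 2, 389 in smaller basal from 293 and 259.6 in the larger from 270. It fell 123-fold in Bsecs against larger basal (33.8 to 1023, adjusted p = 0.0367) and 185-fold against the smaller (50.6 to 1531, adjusted p = 0.0105), both by the authors' DESeq p with Benjamini-Hochberg adjustment. Sox10 in Bsecs was also 42.0-fold below WT luminal (11.3 to 351) and 28.8-fold below KO-labelled luminal (7.73 to 242), and neither passed adjustment (unadjusted p = 0.0274 and 0.0558). Sox10 is a defining gene of Schwann cells as well, so their markers are given beside it. They summed to 41.2 in smaller basal and 163 in the larger, against 261 in Bsecs, and Foxd3 was listed at 0 in every column. In smaller basal, the column with the most Sox10, 3 of the 10 Schwann markers had reads and S100b was listed at 0. In larger basal 7 had reads and in Bsecs 4. In the WT and KO-labelled luminal sums of 655 and 875, Mbp gave 301 and 511, and Erbb3, which epithelial cells express too, gave 346 and 327.

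Sox9, a progenitor factor also active in luminal cells, ran opposite to the basal members. Its level was 1464 in WT luminal from 1640 reads, 2630.1 in KO-labelled luminal from 3639, 621 in Bsecs from 589, 374 in smaller basal from 282 and 161 in the larger from 167. Each step of that order exceeded counting error. KO-labelled luminal was 1.80-fold above WT luminal (1.69 to 1.90). Bsecs was 3.86-fold above larger basal (3.25 to 4.62), 1.66-fold above the smaller (1.44 to 1.92) and 4.24-fold below KO-labelled luminal (3.88 to 4.63). None of the Sox9 differences passed the adjusted DESeq test.

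**Figure D3:**
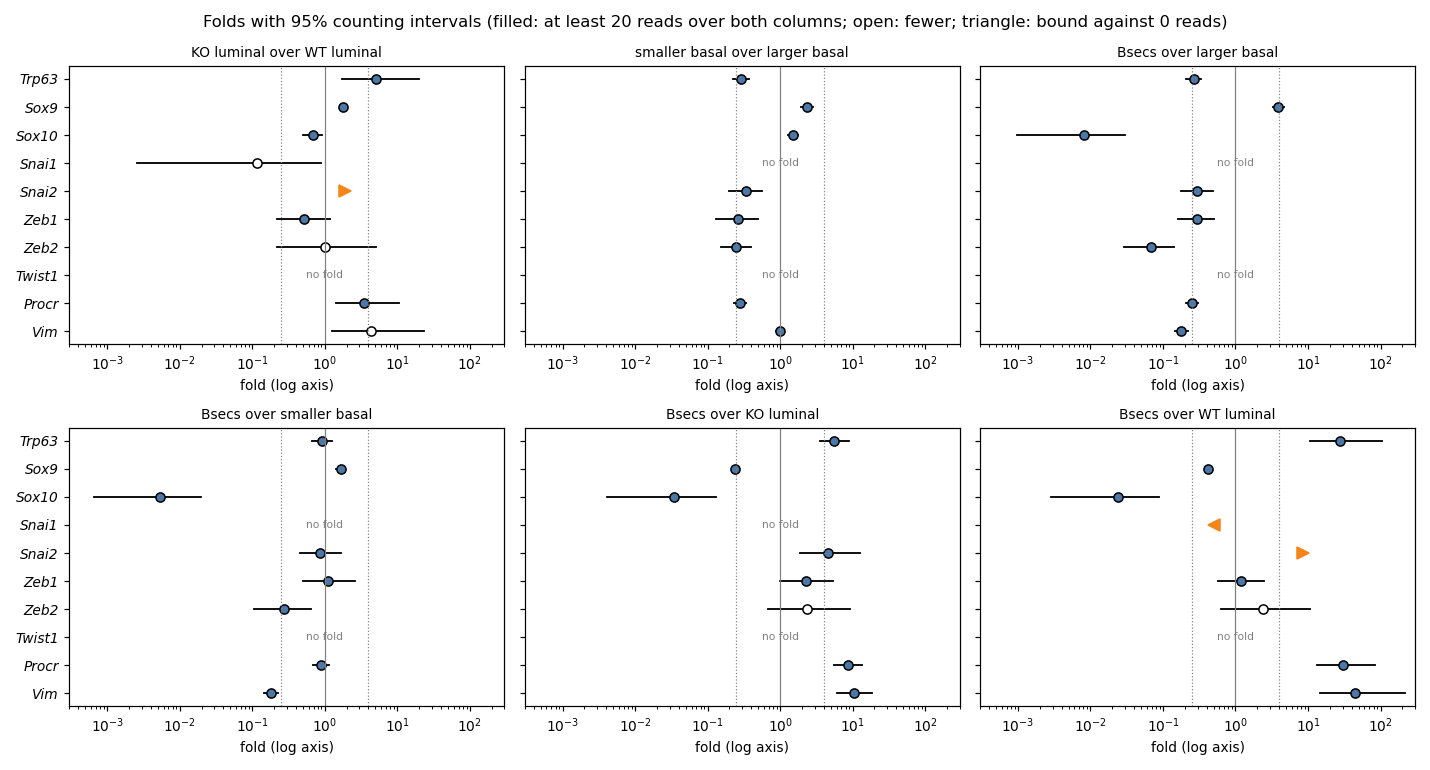
Fold of each member in the 6 deposited comparisons on a log axis, with 95% counting intervals; filled points have at least 20 reads over both columns, open points fewer, and triangles are bounds against a column listed at 0. Dotted lines mark 4-fold; in the comparisons of Bsecs with the basal columns, Sox10 lies furthest to the left, at 123-fold and 185-fold lower.

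Counted over the members, the comparison of the luminal columns held 0 that passed the adjusted DESeq test, where 0.0543% of all tested genes were higher in KO-labelled luminal and 0.0339% lower. The edgeR exact test with an assumed dispersion called 0 members, and over all genes 1.03% higher and 0.523% lower. Trp63 was the only member past 4-fold with at least 20 reads, against 6.73% of genes 4-fold higher and 4.57% lower. Between the basal columns 0 members passed the adjusted test (background 0.0137% in either direction) and 0 passed that edgeR test (0.755% higher and 1.63% lower over all genes). No member reached 4-fold on the median-of-ratios scale, where 5.55% of genes were higher and 9.21% lower in smaller basal. On totals without Rn45s, Zeb1 and Zeb2 passed 4-fold lower, with 10.2% of genes lower on that scale. The median log2 fold of smaller over larger was -1.67 for the 8 members with at least 20 reads and that of all genes -0.03.

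Bsecs held 1 of 10 members below larger basal by the adjusted test (background 0.254% lower and 0.227% higher), and 3 members, Sox10, Zeb2 and Vim, more than 4-fold lower (background 12.6% lower and 9.10% higher). On totals without Rn45s, Trp63, Snai2, Zeb1 and Procr passed too, for 7 in all, and 15.7% of genes were lower on that scale. The edgeR test added Zeb2 (background 5.07% lower and 3.47% higher). Against smaller basal 1 member passed (background 0.380% in either direction), and 2 members, Sox10 and Vim, were more than 4-fold lower (background 11.3% lower and 11.5% higher), and the edgeR test called Sox10 alone (background 4.98% lower and 5.26% higher). For the 8 members with at least 20 reads the median log2 fold was -1.95 against the larger and -0.18 against smaller basal, with -0.02 and 0.04 over all genes. Against KO-labelled luminal no member passed the adjusted DESeq test, and 3 passed the edgeR test, namely Procr and Vim higher and Sox10 lower. The background was 0.00676% higher and 0.0338% lower for the first test and 2.90% and 8.53% for edgeR. Against WT luminal 0 passed the adjusted DESeq test as well, with a background of 0.119% higher and 0.0909% lower. The edgeR test called 5 there, 4 higher and 1 lower, with a background of 4.94% and 8.82%. In size, 4 members (Trp63, Snai2, Procr and Vim) were more than 4-fold higher in Bsecs than in either luminal column. Sox10 was more than 4-fold lower in Bsecs than in either, and Sox9 was so against KO-labelled luminal. The backgrounds for 4-fold were 7.11% higher and 17.7% lower against KO-labelled luminal, and 9.99% higher and 17.0% lower against WT luminal. The comparisons of Bsecs share the Bsecs column, so they are not independent of each other.

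No deposited table sets basal against luminal cells, so that contrast has folds without a test. Over the 4 pairs of a basal with a luminal column, the counting interval lay above 1 in all 4 for Trp63, Sox10, Snai2, Zeb2, Procr and Vim, in 2 for Zeb1, and below 1 in all 4 for Sox9. In larger basal 5 members were more than 4-fold above WT luminal, where 11.8% of genes were, and 1, Sox9, more than 4-fold below, where 15.4% were. Vim was 249-fold higher (85.0 to 1213) and Procr 119-fold (54.2 to 324), with Trp63 at 105-fold and Zeb2 at 34.2-fold, on 127 against 4 reads. Snai2 has only a fold against the floor of 3 counts there, 29.1-fold with an interval from 23.1 upward, so its place among them is not known. In smaller basal 6 members were more than 4-fold above WT luminal (background 11.6%) and 0 below (19.3%). Against KO-labelled luminal, 6 were higher and 1 lower in smaller basal (backgrounds 9.89% and 19.9%), and 7 higher and 1 lower in larger basal (11.1% and 17.3%). Sox10 was 2.94-fold above WT luminal in larger basal (2.32 to 3.74) and 4.40-fold above in smaller basal (3.49 to 5.58). Sox9 was 9.12-fold and 3.91-fold below. The median log2 fold of the 8 members with at least 20 reads was 4.98 in larger basal and 3.20 in the smaller against WT luminal, with -0.04 and -0.09 over all genes.

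Levels per kb of principal transcript adjust for transcript length only. Gapdh had just 2 to 25 counts per column and Eno1 at most 1, so the order between genes describes these counts and may not follow expression. In larger basal Procr stood at 398 normalised counts per kb and Vim at 305, followed by Sox10 at 93.4, Trp63 at 79.7, Sox9 at 38.8, Snai2 at 38.5, Zeb2 at 13.4 and Zeb1 at 10.4. In WT luminal Sox9 led at 354 per kb, and in Bsecs it stood at 150.1.

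The shape of each pattern over the 5 columns was compared with those of 8544 genes by the root mean square difference of centred log2(level + 1), a description over 5 points that share libraries and depth. Snai2 was the gene most like Trp63 (difference 0.21), followed by Procr (0.26) and Panx1 (0.31). Procr was most like the chemokine gene Ccl11 (0.21), with Trp63 and Panx1 at 0.26. Vim was most like Ptx3 and Clmp (both 0.23) and Pcdh7 (0.30), and Zeb2 was most like Enpp1 (0.41), Ogn (0.43) and Sulf1 (0.44). Zeb1 stood nearest to Thap2 (0.20), Usp34 (0.22) and Camta1 (0.22), and Snai2 next to Trp63 (0.21), Aldh1l2 (0.32) and Pigw (0.35). Sox9 matched Unc93b1 and Hip1r (both 0.19) and Fam110a (0.20), and Sox10 matched 4632428N05Rik (0.10), Pgm5 (0.22) and Fabp5 (0.28).

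**Figure D4:**
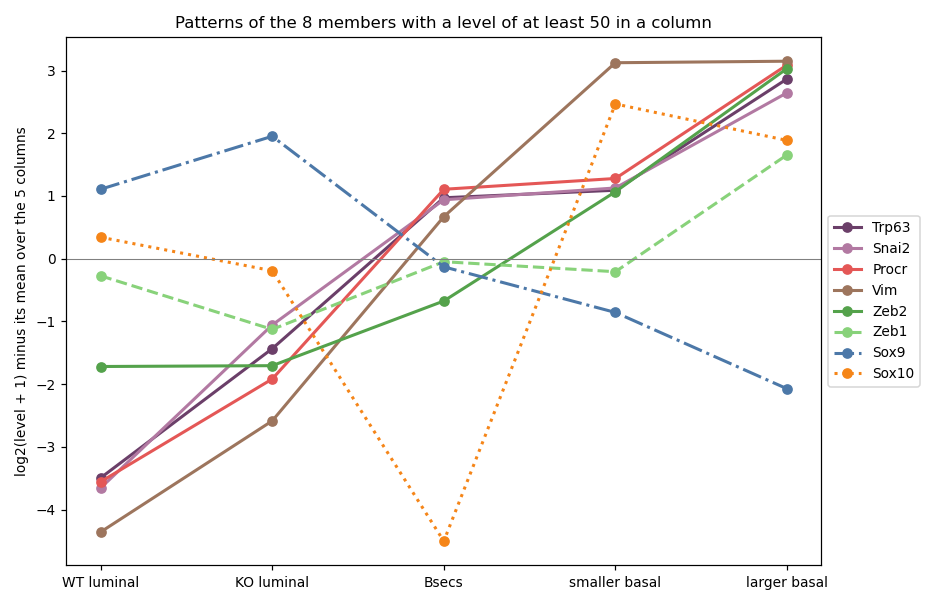
Centred log2(level + 1) of the 8 members with a level of at least 50 in some column, across the 5 columns on a linear axis. Trp63, Snai2 and Procr run close together, Vim is at 657 and 668 in the basal columns, Sox9 runs the other way and Sox10 drops in Bsecs.

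**Figure D5:**
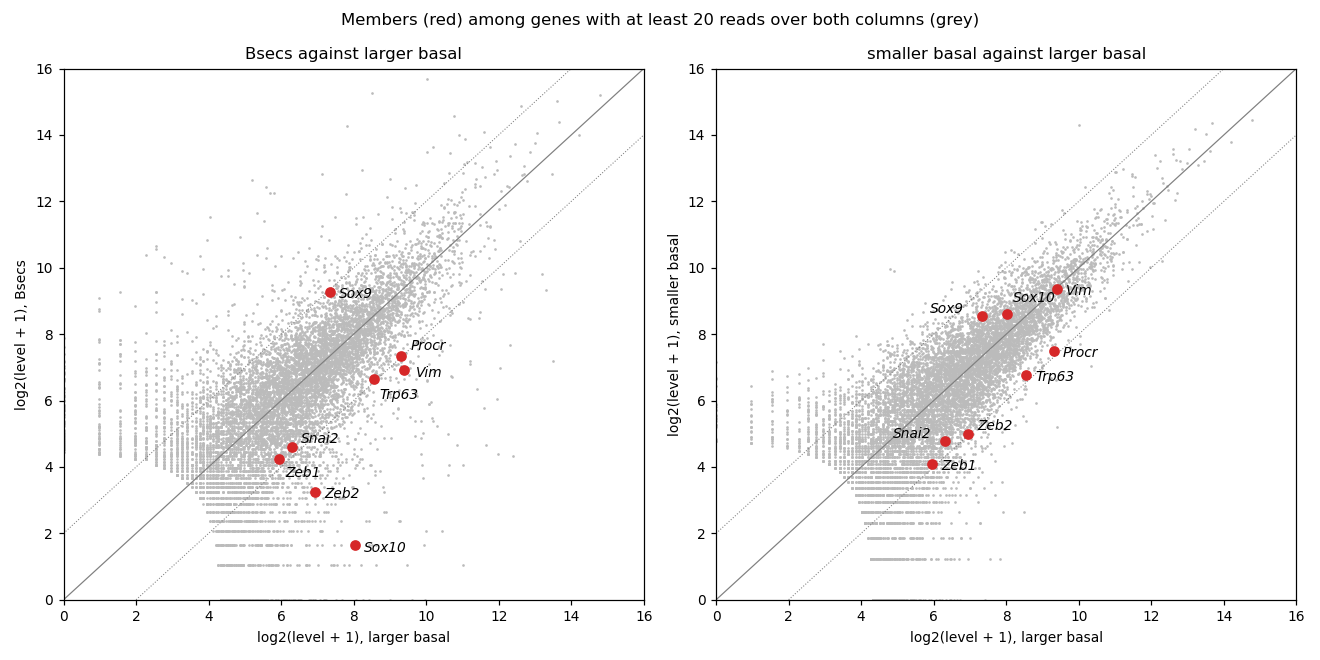
Log2(level + 1) in Bsecs (left) and smaller basal (right) against larger basal, with members in red among genes with at least 20 reads over both columns in grey; dotted lines mark 4-fold and 1 gene above 16 on either axis, Rn45s, lies outside. Sox10 lies far below the diagonal on the left and near it on the right.

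Other factors of epithelial-mesenchymal transition (EMT) gave no call. None of the 18 EMT factors and partners, which include epithelial factors that oppose the switch, passed the adjusted test in any of the 6 comparisons. For Bsecs against larger basal, 4 were more than 4-fold higher and 2 lower among the 12 with at least 20 reads, where 9.10% of all genes were higher and 12.6% lower, and their median log2 fold was 0.66, against -0.02 over all genes. The mesenchymal factor Prrx1 had levels of 0, 0, 2.11, 38.5 and 76.9 in the WT luminal, KO luminal, Bsecs, smaller basal and larger basal columns, so Bsecs lay 36.5-fold below the larger (9.78 to 307). Twist2 had 23 reads in larger basal and was listed at 0 elsewhere. Snai3, of the Snail family, ran otherwise, with 77 reads in smaller basal and a listed 0 in the larger. It had 39 reads in KO-labelled luminal, 3 in WT luminal and 3 in Bsecs. Grhl3, an epithelial grainyhead factor, had 66 reads in Bsecs and was listed at 0 in both basal columns. With these placed at the floor of 3 counts, Bsecs was 24.1-fold higher than larger basal and 17.5-fold higher than smaller basal. Esrp2, an epithelial splicing regulator, was 4.85-fold higher in Bsecs than in larger basal (3.14 to 7.73) and 30.4-fold higher than in the smaller (10.2 to 149.7).

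Among 20 effectors of the epithelial and mesenchymal states, 2 junction genes passed the adjusted test, each in a single comparison. For Bsecs against larger basal, 8 of the 18 with at least 20 reads were more than 4-fold higher and 4 lower (9.10% and 12.6% of all genes), and their median log2 fold was 0.95, against -0.02 over all genes. Cldn4, a claudin of tight junctions, was 67.7-fold lower in the smaller than in larger basal (26.2 to 249.8, adjusted p = 0.0123 by the DESeq test with Benjamini-Hochberg adjustment), with levels of 5.31 and 359.6. Cldn7 was listed at 0 in smaller basal. With that column placed at the floor of 3 counts, it was 66.4-fold higher in Bsecs, with an interval from 53.6 upward (adjusted p = 0.0146 by the same test). Cdh1, which encodes E-cadherin, stood at 15035 in Bsecs, 11279 in KO-labelled luminal, 5672 in WT luminal, 2153 in larger basal and 2596 in smaller basal. Bsecs was thus 6.98-fold above larger basal (6.68 to 7.30). Fn1, which encodes fibronectin, was at 449.9 in Bsecs and 503 in larger basal. The matrix gene Sparc was at 135 and 2379. Tnc, from the same list, went the other way, at 6534 in Bsecs, 514 in larger basal and 299 in smaller basal. Its levels were 132 in WT luminal and 232 in KO-labelled luminal.

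Of 28 mammary stem and progenitor markers, none passed the adjusted test in the 6 comparisons. In Bsecs against larger basal, 3 of the 19 with at least 20 reads were more than 4-fold higher and 4 lower (9.10% and 12.6% of all genes), with a median log2 fold of 0.27, against -0.02 over all genes. The summed level of the list was 25203 in Bsecs, of which Cd44 gave 13429, and 13784 and 13299 in smaller and larger basal. Prom1 was at 178 in Bsecs, 15.9 in smaller basal and 14.4 in larger basal. Bmi1 was at 149.6, 27.9 and 26.0 in these columns. The Wnt-pathway receptor Lgr5 had levels of 0, 0.723, 1.05, 30.5 and 105 in the column order used for Prrx1. Bsecs lay 99.5-fold below larger basal in Lgr5 (17.5 to 3965), on 1 against 109 reads. Lgr4 had levels of 43.2 in Bsecs, 317 in smaller basal and 579.8 in larger basal. The Notch ligand gene Dll1 was at 280.3 in Bsecs, 1094 in smaller basal and 233 in the larger, and was 105-fold higher in Bsecs than in WT luminal (35.4 to 511). Aldh1a3, a luminal progenitor enzyme, was at 2752 and 3369 in the luminal columns, 242 in Bsecs and at most 11.5 in the basal columns.

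Of 25 genes linked to p63, of which the keratins, Itgb4 and Col17a1 are also in the list of basal markers, 2 passed the adjusted test between the luminal columns (0.0543% of all genes were called higher), both higher in KO-labelled luminal: Sfn, a 14-3-3 protein gene, at 11.7-fold (adjusted p = 0.0349, DESeq with Benjamini-Hochberg) and Col17a1, of the hemidesmosome, at 74.5-fold (adjusted p = 0.0358). Against WT luminal 3 rose in Bsecs (0.119% of all genes did), the keratins Krt5 and Krt15 and Col17a1, the last by 836-fold (adjusted p = 0.00931 by the same test). Col17a1 had 2 reads in WT luminal, 184 in KO-labelled luminal and 1417 in Bsecs. With a divisor under the floor of 3 counts, the size of its 74.5-fold and 836-fold differences is not resolved. In Bsecs, 1 of the 25 rose against larger basal (0.227% of all genes) and 3 against smaller basal (0.380%). Fgfr3, a growth factor receptor, rose in Bsecs against both, to a level of 951 against 8.65 in the larger and 1.33 in the smaller (adjusted p = 0.0125 and 0.000712 by the DESeq test). Dsg3, a desmosomal cadherin, and Krt15 also rose against smaller basal (adjusted p = 0.0310 and 0.0421 by DESeq with Benjamini-Hochberg). Over the 23 genes with at least 20 reads, the median log2 fold of Bsecs was 3.26 against WT luminal and 1.17 against larger basal, with -0.11 and -0.02 over all genes, and Trp63 itself was 3.75-fold lower than in larger basal.

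The Sox family beyond the members had 11 genes and no adjusted call in any of the 6 comparisons. Sox11 had 23 reads in larger basal, 1 in the smaller and was listed at 0 in the others. Of 17 further intermediate filament genes, Krt7, a luminal keratin, rose 223-fold in Bsecs against larger basal (102 to 609, adjusted p = 0.00570 by DESeq with Benjamini-Hochberg adjustment), while Synm, which encodes synemin, a partner of vimentin, was listed at 0 in Bsecs with 214 reads in the larger and 171 in smaller basal. With Bsecs placed at the floor of 3 counts, Synm was 65.1-fold and 71.8-fold lower there (adjusted p = 0.0196 and 0.0153, DESeq with Benjamini-Hochberg). Markers were summed beside the sort labels: 15 luminal markers summed to 58801 and 54709 in the luminal columns, 18802 in Bsecs and 5125 and 3427 in the smaller and larger basal columns, and 15 basal markers to 980.4, 1796, 24118, 53908 and 29896 in the order used above. The luminal marker Esr1 went against its sum, at 947 in smaller basal, 28.8 in larger basal, and 319.7 and 434 in WT and KO-labelled luminal. It alone of the luminal markers passed the adjusted DESeq test between the basal columns, higher in the smaller, as 0.0137% of all genes were. The basal sum of Bsecs came mostly from the keratins Krt14 (8945), Krt17 (5008), Krt5 (3307) and Krt15 (2694). The contractile genes of myoepithelial cells were low there: Acta2, smooth muscle actin, stood at 144 in Bsecs and 11621 in larger basal, and Myh11, smooth muscle myosin, had 19 and 4223 reads.

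By the adjusted DESeq test 5 of the 15 basal markers fell in Bsecs against larger basal (0.254% of all genes) and 6 against smaller basal (0.380%), where 1 rose. Those that fell against larger basal were Mme, Cnn1, Actg2, Oxtr and Myh11, which also fell against smaller basal. Cnn1, which encodes calponin, had levels of 4.21 in Bsecs, 603 in larger basal and 2561 in smaller basal. Oxtr, the oxytocin receptor gene, had 1.05, 294 and 208. Of the luminal markers, Foxa1, a pioneer factor of luminal cells, rose in Bsecs against both basal columns, from 1.92 in the larger and a listed 0 in the smaller to 228 (adjusted p = 0.0470 and 0.0246 by DESeq with Benjamini-Hochberg). Cdh3, which encodes P-cadherin, rose in Bsecs against WT luminal, from 1.79 to 457 (adjusted p = 0.0289 by the same test).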

How the data were processed

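RNA from sorted cells was extracted with TRIzol, and cDNA and libraries were made with the Ovation RNA-seq V2 and Ovation Ultralow DR kits, per the labels' protocols. STAR, DESeq and build mm9 are named in the submitters' processing notes; for versions, counter, annotation and strand setting: not given in the sources used here. In all, the authors deposited 6 comparison tables whose mean signal columns are normalised counts, per the file headers, beside unadjusted p-values deposited by the authors. In the deposited tables every mean was a whole multiple of 1 step per column within 0.01 of a count, and the recovered counts gave 5 distinct columns. Of these, 0 were labelled by sample and 0 were of other origin. The deposited p-values compare 1 column with 1 column.

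Rows with date-like or duplicated symbols (27) were left out, leaving 23973 genes. Levels used median-of-ratios factors over the 5 columns. Folds carry exact binomial (Clopper-Pearson) 95% intervals and levels exact Poisson ones; reads were counted with no molecular identifiers and may be PCR copies, so both cover counting error only. A column at 0 was placed at a floor of 3 counts. Calls used the authors' DESeq p with Benjamini-Hochberg adjustment over all genes at 0.05; size calls needed 4-fold and 20 reads over both columns. edgeR 4.0.16 (R 4.3.3) gave TMM factors and an exact test with an assumed dispersion of 0.16. Python 3.11.15, numpy 2.4.6, pandas 2.3.3, scipy 1.17.1 and matplotlib 3.10.9 were used, and the steps were tested on simulated data. Transcript lengths are of the longest principal protein-coding transcript.

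Named genes were all 10 members, and the rule for each list and comparison took up to 4 genes past the adjusted threshold or, with none, up to 3 with the largest fold past 4-fold, of which the text prints only some; Cdh1, genes named a further time in other comparisons and single marker genes fall outside this rule and were chosen after their values were seen. For each member the 3 genes with the nearest pattern among genes with a level of at least 50 were named. The members and lists were chosen with earlier results of these data known. Single values of some marker genes are not reported here.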

Additional observations from a re-analysis of the deposited data

How the results depend on the processing

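No paired analysis was possible because the tables label no column by library, and for the same reason no library could be left out. The number of members past 4-fold was 1 between the luminal columns on the main settings, 3 with no filter on reads, 0 with at least 50 reads and 2 at a fold of 2. Between the basal columns it was 0, and 6 at a fold of 2, 2 on totals without Rn45s (10.2% of all genes lower, 4.56% higher) and 2 with TMM factors (9.86% and 4.85%). For Bsecs against the larger basal column it was 3, and 8 at a fold of 2 and 7 on totals without Rn45s (15.7% of all genes lower, 7.12% higher). The shares of all genes at a fold of 2 or with other filters on reads were not counted. Those counts describe the settings and not the members. With the edgeR exact test at an assumed dispersion, members called numbered 2 instead of 1 for Bsecs against the larger basal column, 3 instead of 0 against the column labelled KO luminal, and 5 instead of 0 against WT luminal. Genes called over the lists numbered 6 instead of 2 between the luminal columns, 10 instead of 2 between the basal columns, and for Bsecs 52 instead of 9 against the larger basal column, 49 instead of 12 against the smaller, 50 instead of 0 against KO luminal and 49 instead of 5 against WT luminal. The edgeR test also called a larger share of all genes in every comparison. For Bsecs against KO luminal it called 2.90% higher and 8.53% lower, where the adjusted DESeq test called 0.00676% and 0.0338%. The cause was not tested. Scaling on totals without Rn45s shifts all log2 folds of the 6 deposited comparisons by -0.10 to -0.35, and those of basal over luminal by -0.06 to 0.19. Of the other results, 17 moved beyond their counting interval and 315 did not. On totals without Rn45s 3 uncalled log2 folds changed sign, Zeb1 in Bsecs over smaller basal (0.16 to -0.04) and over WT luminal (0.23 to -0.02) and Zeb2 in KO over WT luminal (0.01 to -0.06). The scaling by totals and the TMM scaling of the size counts, and the edgeR counts over lists, were chosen after seeing the data. Genes near the floor of 3 counts, Snai1 and Twist1 among them, cannot be resolved at this depth.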
